A study of Mus musculus with 6 samples.

Results

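The genes described here are the growth factor Igf1, the receptors Igf1r and Insr, the receptor substrates Irs1 and Irs2, and the IGF binding proteins Igfbp3, Igfbp4, Igfbp5, Igfbp6 and Igfbp7. They were chosen by name as a part of IGF and insulin signalling, with earlier results of these data known. A probe belongs to one of them if its transcript accession is listed under that gene in the mouse reference. All 10 were found on the arrays, on 13 probes that each passed the filter on dim signal, among 25005 genes and transcripts tested. Quadriceps muscle of male, 9-week-old AR97Q mice was profiled, with 3 mice in the exercise group, 3 in the sedentary group and an array for each mouse. AR97Q mice carry a human androgen receptor transgene with an expanded CAG repeat on a C57BL/6J background and are a model of spinal and bulbar muscular atrophy. All mice of both groups carry the transgene, and no wild-type muscle was analysed here. The exercised mice had run on a forced wheel at low to moderate intensity until 9 weeks of age, and muscle was taken on the day after the last run. The promoter that drives the transgene is not given in the sources used here.

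IGF-1 is made by liver and, locally, by muscle, and it binds the IGF-1 receptor, a tyrosine kinase that is a close relative of the insulin receptor. Both receptors phosphorylate the docking proteins IRS-1 and IRS-2, which recruit phosphoinositide 3-kinase and so activate Akt, the kinase that promotes glucose uptake and protein synthesis in muscle and holds FoxO transcription factors out of the nucleus. The IGF binding proteins hold IGFs in the circulation and the tissue, and proteases that cleave them release the growth factor. IGFBP-6 prefers IGF-2 over IGF-1, and the protein called IGFBP-7 binds IGFs only weakly.

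Values are spot intensities of 1-colour arrays, given as log2 signal relative to the 75th percentile of its own array, and a log2 fold change is the exercise mean minus the sedentary mean. This percentile was 250.7 to 257 in exercised mice but 310.5 to 383.7 in sedentary mice, so the choice of scaling matters for every value below. By the barcodes of the arrays, all were on 1 slide. The second part of the barcode, called the strip here, is a number that the labels do not explain. The exercise arrays and sedentary mouse 1 share a strip, whereas the other 2 sedentary arrays have the other strip number. All 8 myofibre genes of a marker list (Ckm, Acta1, Des and others) passed the filter on dim signal. All 9 endothelial and all 10 fibroblast markers passed it too, so passing the filter does not by itself check the tissue label. Nothing in the labels says that the mice of a group came from separate litters or cages, and p-values measure only the spread between these arrays. In muscle tissue, fewer cells of a type and less RNA per cell cannot be told apart.

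Of the 10 genes, limma called 2 at an adjusted p under 0.05. Igf1r was lower and Igfbp6 higher in the exercise group. Over all genes and transcripts tested, 17.6% were called, 11.5% as higher and 6.15% as lower, so that 2 of 10 is close to the share of the whole array. These shares moved with the scaling, to 2.47% higher and 45.1% lower without scaling between arrays, 1.37% and 42.3% with scaling on spike-in probes, and 4.69% and 12.8% in the deposited table of values. None of the 10 reached the study's threshold for a differentially expressed gene, which also asks for a change of 1 log2 unit in either direction, and which 1.72% of all features passed as higher and 1.06% as lower. At an unadjusted p under 0.05 limma counted 3 of the 10, beside 9251 of all 25005 features. The groups did not overlap for 4 of them, Irs1 and Igfbp6 with exercise above and Igf1r and Insr with exercise below, against 43.2% of everything tested (25% above and 18.2% below). The median log2 fold change of the 10 was 0.11, beside a median of 0.03 over all features.

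**Figure D1:**
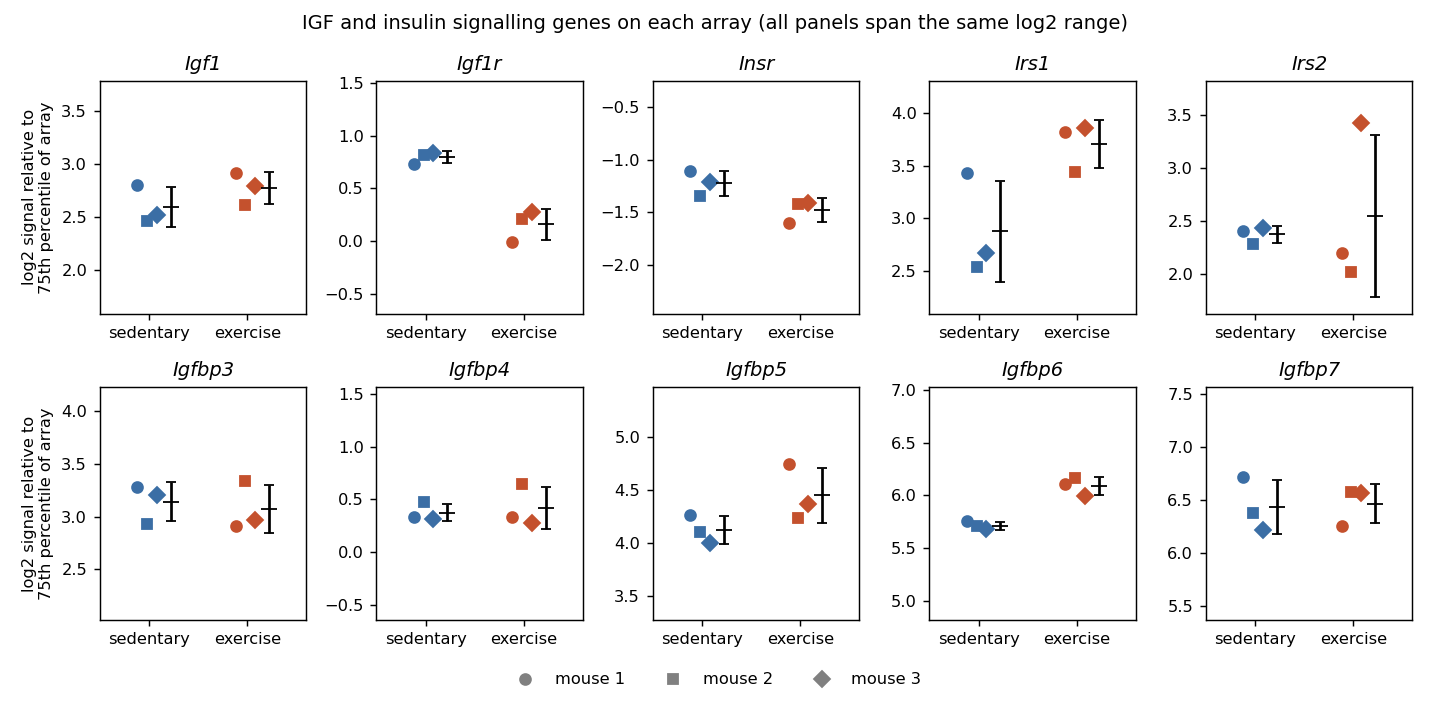
Log2 signal of each gene on each array, relative to the 75th percentile of the array, with 1 panel per gene and the same span in every panel. Points are single mice, and bars are the mean and SD of 3 mice. The groups are apart in Igf1r, Insr, Irs1 and Igfbp6, and exercise mouse 3 stands above all others in Irs2.

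The start regions of the 2 called genes are shown because they are the members that passed the test in opposite directions, and they differ in base composition. They are the 250 bases before the RefSeq start, in GRCm38.p6, both on the plus strand. That of Igf1r lies at chr7:67952007-67952256 and that of Igfbp6 at chr15:102143936-102144185. Capitals mark the GC box GGGCGG and the TATA box TATAAA, searched on both strands, so a TATA box on the minus strand reads TTTATA.

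Igf1r: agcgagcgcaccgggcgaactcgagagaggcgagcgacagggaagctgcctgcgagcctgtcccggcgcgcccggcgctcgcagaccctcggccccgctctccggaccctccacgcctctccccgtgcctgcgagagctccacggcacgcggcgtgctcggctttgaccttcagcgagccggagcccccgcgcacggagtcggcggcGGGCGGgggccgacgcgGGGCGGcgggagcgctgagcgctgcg

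Igfbp6: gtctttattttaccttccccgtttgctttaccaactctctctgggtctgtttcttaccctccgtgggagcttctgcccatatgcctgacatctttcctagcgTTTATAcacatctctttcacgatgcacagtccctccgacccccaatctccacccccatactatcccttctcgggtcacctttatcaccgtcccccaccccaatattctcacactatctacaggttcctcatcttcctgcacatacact

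G and C made up 77.6% of the Igf1r region, a higher share than in 97.6% of the 32851 mouse start regions of this length, and 49.6% of the Igfbp6 region, where the median of all was 52.4%. The Igf1r region held 42 CpG pairs and that of Igfbp6 held 7. The GC box was present in 32.7% of all start regions. It occurred 2 times in that of Igf1r and in that of Irs1, 4 times in that of Igfbp7, once in that of Irs2, and not in the other 5 of the 9 members with an entry. The TATA letters were present in 12.4% of all start regions and among the members in those of Igfbp4 and Igfbp6. The FoxO core TGTTTAC, which 3.17% of all start regions held, was found in none of the 9. A match of letters is a description and not a binding site.

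Igf1, the growth factor itself, had log2 signals of 2.91, 2.61 and 2.79 in the exercise group and of 2.80, 2.46 and 2.52 in the sedentary group. The groups overlapped, because sedentary mouse 1 lay above exercise mouse 2 and close to the others. The mean was 2.77 ± 0.15 (SD, n = 3) with exercise and 2.59 ± 0.19 (SD, n = 3) without. The log2 fold change of 0.18 (standard error, SE, 0.13, adjusted p = 0.371 by limma) did not pass the test, and its 95% confidence interval from -0.15 to 0.50 allows anything between 0.904 and 1.42 times the sedentary level. Against sedentary mouse 1 alone, in the same strip, the difference was -0.03. The sign turned without scaling between arrays and with scaling on spike-in probes. Igf1 lies on chromosome 10 from 87858265 to 87937047 in GRCm38.p6, and its probe is listed under a single transcript record, so the alternative first exons and E-peptide forms of Igf1 were not separated.

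Igf1r encodes the IGF-1 receptor, which carries most of the growth signal of both IGFs, and lies on chromosome 7 from 67952257 to 68233668 in the same build. Its brighter probe had log2 signals of -0.01, 0.21 and 0.27 with exercise and of 0.73, 0.82 and 0.84 without. Every exercise array lay below every sedentary array, with a gap of 0.46 between the nearest ones. The mean was 0.16 ± 0.15 (SD, n = 3) with exercise and 0.80 ± 0.06 (SD, n = 3) without. Igf1r fell by 0.64 on the log2 scale (SE 0.10, adjusted p = 0.0236 by limma), to 0.643 times the sedentary level with a 95% confidence interval from 0.541 to 0.765. This is the only fall among the 10 that passed, and 6.9% of all features had a lower log2 fold change. Within the shared strip, against sedentary mouse 1, the difference was -0.57, and against the other 2 sedentary arrays it was -0.67. With the strip as a block Igf1r did not pass (-0.57, adjusted p = 0.169 by limma), nor did it with the replicate number as a block (adjusted p = 0.0606), and in these fits 3 and 0 of all 25005 features were called.

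The second Igf1r probe, which carries the same accession, gave a smaller difference. It read -1.06, -0.86 and -0.78 with exercise and -0.77, -0.60 and -0.54 without, so the groups were separated by 0.007 only. Its log2 fold change was -0.26 (SE 0.11), which did not pass among all kept probes (limma adjusted p = 0.156). With the mean of both probes Igf1r still passed, at -0.45. The direction was negative under every scaling tried, as the heat map of processing settings shows, and the adjusted p missed the threshold when any array other than that of sedentary mouse 1 was left out, as it did for all but at most 1 of the 25005 features.

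Insr encodes the insulin receptor and lies on chromosome 8 from 3150922 to 3279649. Its brighter probe read -1.60, -1.42 and -1.41 with exercise and -1.11, -1.35 and -1.21 without. The groups did not overlap, but the gap of 0.06 between them was small. The log2 fold change was -0.25 (SE 0.10, adjusted p = 0.135 by limma), with a 95% confidence interval from -0.51 to 0.0001. The second probe, listed under another Insr transcript, had overlapping groups and gave -0.14 (SE 0.20, adjusted p = 0.659). Insr passed only in the settings without scaling between arrays and with scaling on spike-in probes, where the median of all features fell as well. The accessions do not show which splice form of the receptor either probe reads.

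Irs1, the docking protein that links both receptors to phosphoinositide 3-kinase in muscle, had the largest log2 fold change of the 10 and did not pass the test. It read 3.81, 3.44 and 3.86 with exercise and 3.43, 2.54 and 2.67 without. The groups were separated by 0.01 only, because sedentary mouse 1 lay next to exercise mouse 2, and the other 2 sedentary mice lay well below all others. The mean was 3.70 ± 0.23 (SD, n = 3) with exercise and 2.88 ± 0.48 (SD, n = 3) without, a log2 fold change of 0.82 (SE 0.26, adjusted p = 0.0726 by limma) or 1.77-fold with a 95% confidence interval from 1.15 to 2.73. The difference was 0.28 against sedentary mouse 1 in the same strip and 1.10 against the 2 arrays in the other strip. Without sedentary mouse 1 the adjusted p was 0.0147. With the strip as a block the log2 fold change was 0.28 and did not pass, in a fit that called 3 of all 25005 features. That fit sets the exercise group against sedentary mouse 1 alone, so strip and mouse cannot be told apart.

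Irs2, the second substrate, whose transcription FoxO factors are known to raise when insulin is low, read 2.20, 2.02 and 3.42 with exercise and 2.41, 2.28 and 2.43 without. The exercise group spanned the sedentary group, and exercise mouse 3 alone lay above all sedentary arrays. The SD of 0.77 in the exercise group, against 0.08 in the sedentary group, was the widest spread of the 10. The log2 fold change of 0.18 (SE 0.36, adjusted p = 0.752 by limma) turned to -0.26 without exercise mouse 3. The adipocyte markers other than Lep also set exercise mouse 3 apart from the other exercised mice. Their summed level, in units of the 75th percentile, spanned 134.7 to 458.9 with exercise and 296.2 to 400.2 without, and Cidec, a lipid droplet protein, read 3.29, 4.22 and 5.71 with exercise and 5.55, 5.72 and 4.94 without. Of the 6 markers 5 had negative log2 fold changes, none of them called, and the median of the list was -0.85. Lep alone was positive and was called, at 0.35 (SE 0.09, adjusted p = 0.0416 by limma). It read -1.16, -1.24 and -1.08 with exercise. The part of fat cells in the Irs2 values was not tested. The interval from 0.612 to 2.08 times the sedentary level includes no change.

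**Figure D2:**
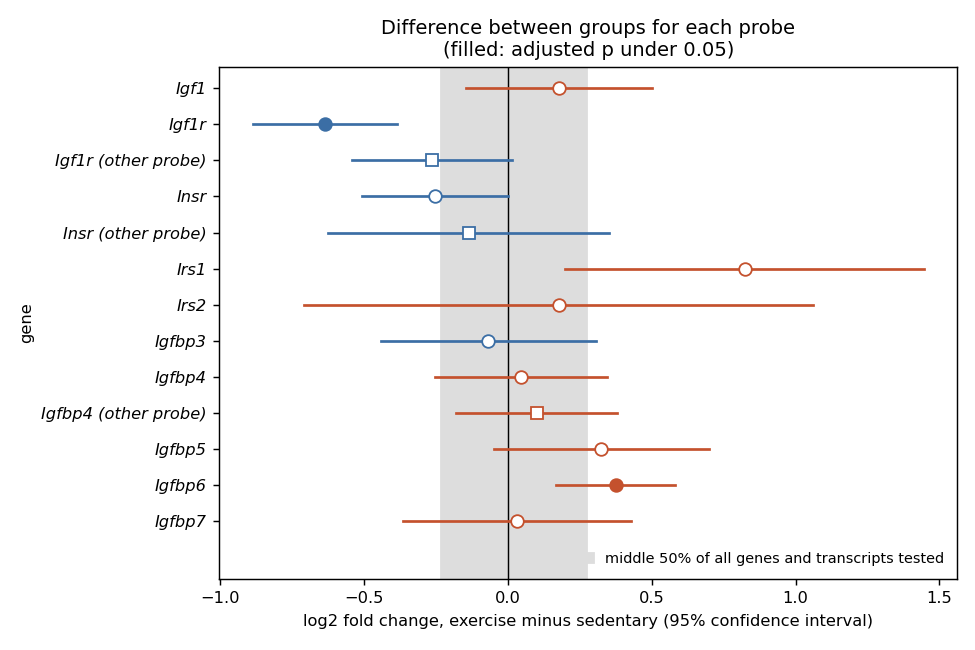
Log2 fold change of each of the 13 probes, exercise minus sedentary, with its 95% confidence interval. Circles are the brightest probe of a gene and squares its other probe, filled symbols passed an adjusted p of 0.05, and the grey band lies between the quartiles of all features tested. Igf1r at -0.64 and Igfbp6 at 0.37 are filled, and Irs1 at 0.82 has an interval above 0 but is not.

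Igfbp6, which lies on chromosome 15 from 102144186 to 102149512, was the one binding protein that passed. It read 6.11, 6.17 and 5.995 with exercise and 5.76, 5.71 and 5.68 without. The lowest exercise value was 0.24 over the highest sedentary value, and sedentary mouse 1 fell in with its group. The mean was 6.09 ± 0.09 (SD, n = 3) against 5.71 ± 0.04 (SD, n = 3). Igfbp6 rose by 0.37 (SE 0.09, adjusted p = 0.0357 by limma), to 1.30 times the sedentary level with a 95% confidence interval from 1.12 to 1.50. The difference was 0.33 against sedentary mouse 1 alone. Its size depended on the scaling, being 0.14 with quantile normalization, 0.22 in the deposited table of values, -0.10 without scaling and -0.16 with spike-in scaling, none of which passed.

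Igfbp5, a binding protein of differentiating myoblasts and of matrix, read 4.74, 4.24 and 4.37 with exercise and 4.26, 4.10 and 4.0033 without. The groups met, since exercise mouse 2 lay just under sedentary mouse 1. Its log2 fold change was 0.33 (SE 0.15, adjusted p = 0.180 by limma), with a 95% confidence interval from -0.05 to 0.70.

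Igfbp3, the main carrier of IGFs in blood, overlapped between the groups, with values of 2.91 to 3.33 with exercise and of 2.93 to 3.28 without. Its log2 fold change was -0.07 (SE 0.15, adjusted p = 0.774). Igfbp4, an inhibitor of IGF action that PAPP-A cleaves, gave 0.04 (SE 0.12, adjusted p = 0.817) on its brighter probe and 0.10 (SE 0.12, adjusted p = 0.569) on the other. Igfbp7, which is abundant in vessels, gave 0.03 (SE 0.16, adjusted p = 0.909), from values of 6.25 to 6.58 with exercise and of 6.22 to 6.72 without. For these genes the 95% confidence intervals in this order reached from -0.44 to 0.31, from -0.26 to 0.34 and from -0.37 to 0.43.

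Taking the 10 together by array, Igf1, Irs1 and Igfbp5 moved alike, with Pearson correlations over the 6 arrays of 0.90 for Igf1 and Irs1, 0.87 for Igf1 and Igfbp5 and 0.81 for Irs1 and Igfbp5. In these genes the array of sedentary mouse 1 was the highest of its group, and Igf1r ran against Igfbp6, with a correlation of -0.96. These correlations are descriptions over 6 arrays that share 1 slide and 1 scaling, and they contain the difference between the groups. Among 15740 other named genes, those most like Igf1 over the arrays were Zfhx3, Cebpg and Ptpn4, with correlations of 0.994, 0.992 and 0.983. Among those most like Irs1 were Foxn3 and Klhdc10, at 0.998 and 0.997. As many as 373 genes had a correlation over 0.95 with Irs1 and 40 with Igf1.

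The rest of the pathway was read from a list of 91 genes in 7 roles, all on the arrays, of which 84 were bright enough to be tested. Of the 84, 11 were called higher and 2 lower, or 15.5%, beside 17.6% of all features. The median of the 84 was 0.09.

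**Figure D3:**
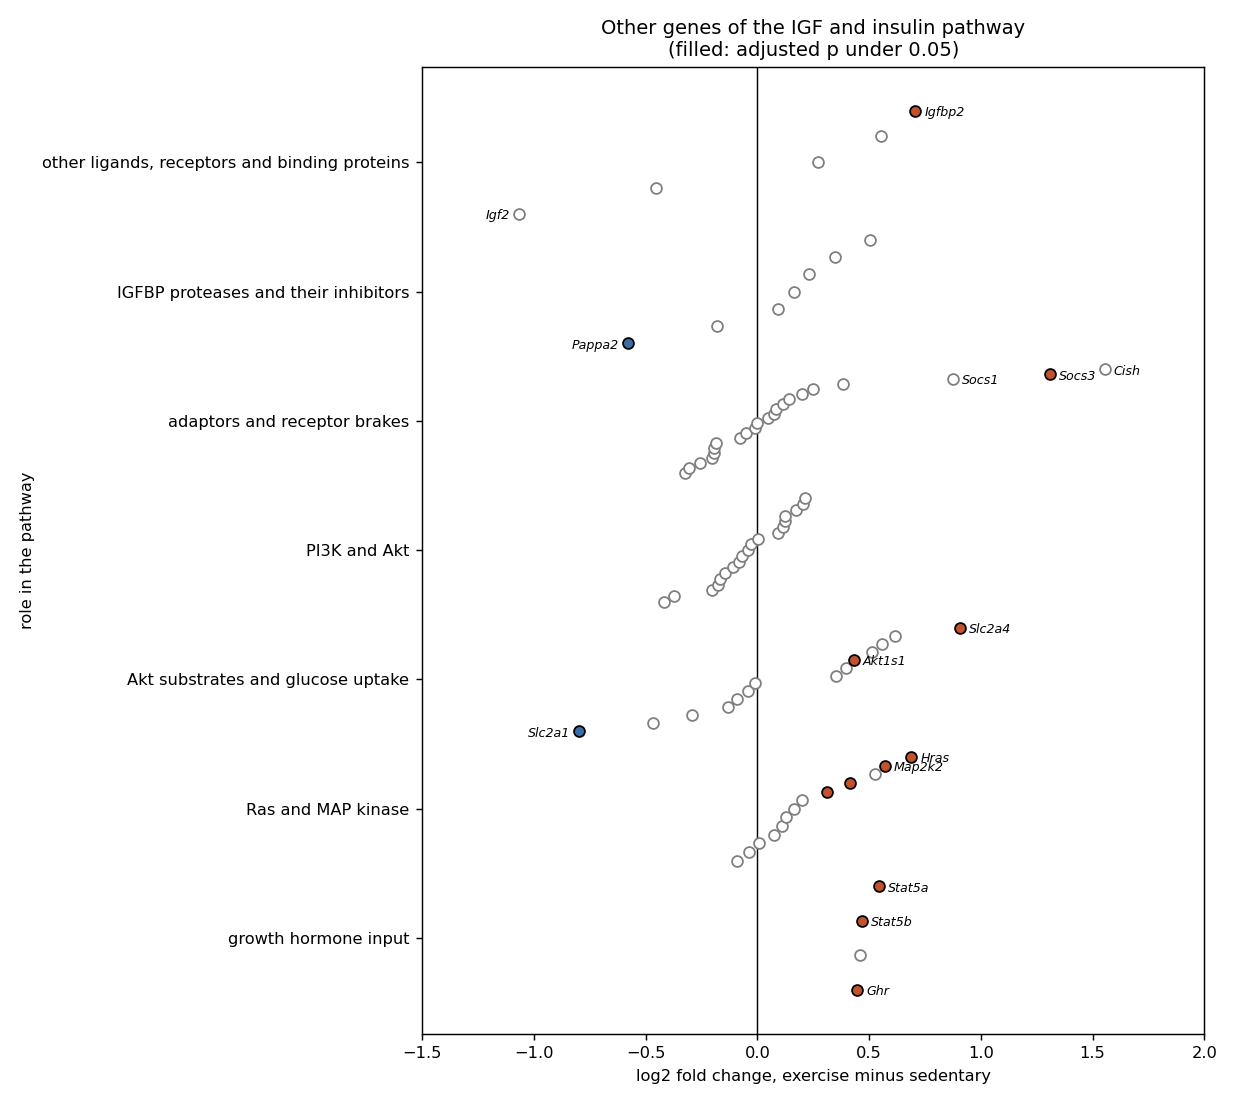
Log2 fold change, exercise minus sedentary, of the 84 other genes of the IGF and insulin pathway, grouped by role. Filled points passed an adjusted p of 0.05, red as higher and blue as lower. All 4 genes of the growth hormone input lie above 0, and no gene of the phosphoinositide 3-kinase and Akt group is filled.

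Among ligands, receptors and binding proteins outside the 10, Igfbp2, a further binding protein, was the 1 called of 5 tested. It read -1.62, -1.61 and -1.69 with exercise and -1.93, -2.54 and -2.57 without, with sedentary mouse 1 nearest to the exercise group. Its log2 fold change was 0.71 (SE 0.18, adjusted p = 0.0477 by limma) and 0.29 against sedentary mouse 1. Igf2, the fetal growth factor, did not pass on its brighter probe, with -0.56, -0.25 and -0.13 against 0.05, 1.22 and 0.99, a log2 fold change of -1.06 (SE 0.31, adjusted p = 0.0634). Its other probe gave -1.40 (SE 0.33) and passed among all kept probes (adjusted p = 0.0408). Igf2r, which clears IGF-2, gave -0.45 (SE 0.13, adjusted p = 0.0585). Ins1, Ins2, Igfbp1 and Igfbpl1 were too dim to be tested.

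Of the proteases that cleave binding proteins and their inhibitors, Pappa2, which cleaves IGFBP-3 and IGFBP-5, was the 1 called of 7 tested. It read -0.44, -0.13 and -0.27 with exercise and 0.31, 0.21 and 0.38 without, and no arrays of the groups overlapped. Pappa2 fell by 0.58 (SE 0.11, adjusted p = 0.0265 by limma), and by 0.59 against sedentary mouse 1. On none of the arrays was a second Pappa2 probe well above background. The related protease Pappa gave 0.35 (SE 0.19, adjusted p = 0.234).

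Of 22 tested adaptors and receptor brakes, Socs3, a suppressor of cytokine signalling that also binds the insulin receptor, was the 1 called. It read 2.17, 2.15 and 2.50 with exercise and 1.44, 0.27 and 1.19 without. Socs3 rose by 1.31 (SE 0.31, adjusted p = 0.0384 by limma), and in this fit it was the only gene of the 84 past the fold change minimum as well. The difference was 0.84 against sedentary mouse 1. Cish, of the same family, had the largest value of the list at 1.55 but a SE of 0.78 (adjusted p = 0.199).

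None of the 19 genes of phosphoinositide 3-kinase and Akt signalling passed by limma, and their median log2 fold change was -0.04. At an unadjusted p under 0.05 there were 3, beside 9251 of all 25005 features. Akt1 gave -0.03 (SE 0.09) and Akt2, the main form in insulin-stimulated glucose uptake, 0.002 (SE 0.09), while the other Akt2 probes gave 0.20 (adjusted p = 0.125) and 0.29 (adjusted p = 0.0547) in the fit over probes. The largest value was that of the regulatory subunit Pik3r3 at -0.42 (SE 0.14, adjusted p = 0.0888).

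Of 14 Akt substrates and glucose uptake genes, Slc2a4 and Akt1s1 were called higher and Slc2a1 lower. Slc2a4 encodes the insulin-regulated glucose transporter and gave 0.91 (SE 0.15, adjusted p = 0.0236 by limma). Slc2a1 encodes the basal glucose transporter and read 1.84, 1.87 and 1.95 with exercise and 2.36, 2.73 and 2.97 without. It fell by 0.80 (SE 0.16, adjusted p = 0.0288), so the basal and the insulin-regulated transporter passed in opposite directions. The 2 directions were the same under every scaling tried. Akt1s1, a subunit of the mTOR complex that Akt phosphorylates, gave 0.43 (SE 0.11, adjusted p = 0.0441), and its second probe also gave 0.43. The direction of Akt1s1 depended on the scaling, at -0.04 without scaling and -0.11 with spike-in scaling. It gave 0.27 with quantile normalization, 0.52 with median scaling and 0.27 in the deposited table, and passed in none of these settings.

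Of 13 Ras and MAP kinase genes, 4 were called, all higher, where 11.5% of all features were called higher. Among them were Hras at 0.69 (SE 0.12, adjusted p = 0.0245 by limma), the kinase Map2k2 at 0.57 (SE 0.11, adjusted p = 0.0258) and the exchange factor Sos2 at 0.31 (SE 0.08, adjusted p = 0.0435). Without scaling between arrays Sos2 turned negative, at -0.16, and Hras and Map2k2 gave 0.22 and 0.10, none of which passed.

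Growth hormone drives Igf1 transcription through its receptor, JAK2 and STAT5, and of these 4 genes 3 were called higher, where 11.5% of all features were. The count was 4 with median scaling, normexp or array weights, and 1 with quantile normalization or averaged probes. It was 0 with spike-in or no scaling, the deposited table, either block or the methods' t-test. The count was also 0 when any array but that of sedentary mouse 1 was left out, which left 0 or 1 of all 25005 features called. Without sedentary mouse 1, or with the probe of largest SD, the count was 2. Ghr, the receptor, read 3.41, 3.18 and 3.52 with exercise and 3.01, 2.91 and 2.86 without. Its log2 fold change was 0.45 (SE 0.11, adjusted p = 0.0464 by limma), but its other probes gave 0.20 and 0.11 and did not pass. Stat5b rose by 0.47 (SE 0.10, adjusted p = 0.0329) and Stat5a by 0.54 (SE 0.11, adjusted p = 0.0289), whereas the second Stat5a probe gave -0.33 (adjusted p = 0.0598). Jak2 gave 0.46 (SE 0.13, adjusted p = 0.0594) on its brighter probe and 0.03 (SE 0.29) on the other. Without scaling between arrays the values of the 3 called genes were near 0, at -0.03 for Ghr, 0.07 for Stat5a and -0.003 for Stat5b, when the median of all features was -0.45.

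**Figure D4:**
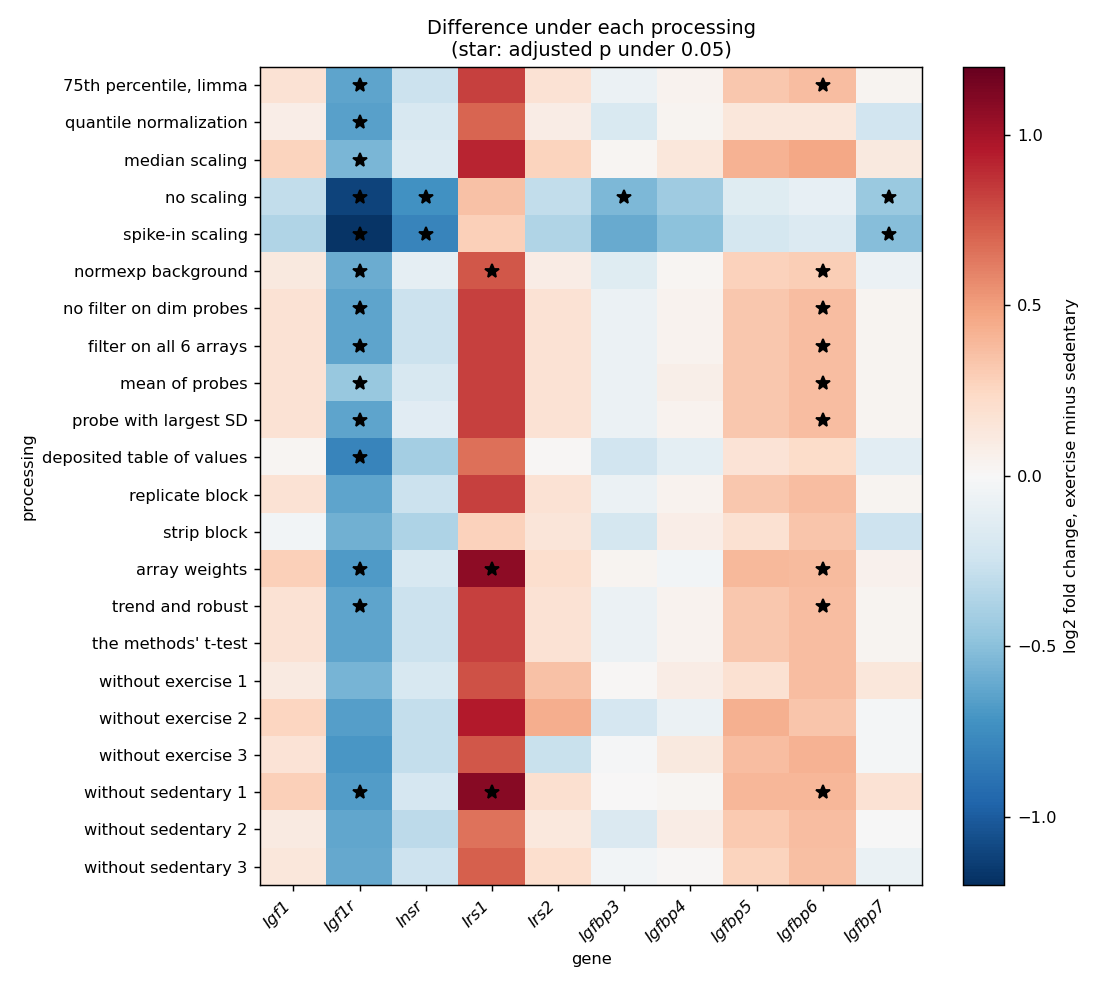
Log2 fold change of the 10 genes, exercise minus sedentary, in each processing setting, with a row per setting, red for higher and blue for lower, and a star where the adjusted p was under 0.05. Igf1r is blue in all rows, and Igfbp6 turns from red to blue where arrays were not scaled to their own signal.

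Other cells of the muscle express several of these genes, and their markers were read beside them. Of 10 fibroblast markers, which bear on Igfbp6 and Igfbp4, limma called 0 in either direction (1 had an unadjusted p under 0.05), and their summed level, in units of the 75th percentile, ranged from 823 to 920 with exercise and from 774 to 1039 without. All 6 tenocyte markers had negative log2 fold changes, from -0.84 for Scx to -0.38 for Thbs4, with 0 called by limma and 4 at an unadjusted p under 0.05, and a summed level of 59.7 to 74.1 against 78.2 to 110.7. In the same fit 9251 of all 25005 features had an unadjusted p under 0.05. Of 9 endothelial markers, which bear on Igfbp7 and Igfbp3, 0 were called and 0 had an unadjusted p under 0.05, with log2 fold changes from -0.17 for Emcn to 0.17 for Cldn5. Of 8 macrophage markers 0 were called and 0 had an unadjusted p under 0.05. The part of these cells in the results was not tested.

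Markers that moved with the groups were those of the myofibre, of which 5 of 8 were called higher, and of denervation, of which 8 of 10 were called lower. Of all features, 11.5% were called higher and 6.15% lower. The summed level of the myofibre list was 4104 to 4691 with exercise and 2112 to 2959 without. That of the denervation list was 29.4 to 31.3 with exercise and 48.0 to 104.5 without, and sedentary mouse 1 had the 48.0. The 3 sedentary values of Igf1r lay close together, between 0.73 and 0.84. In sedentary mouse 1, Irs1 and also Igf2, which is not among the 10, lay toward the exercise group. Insr lay farthest from the exercise group in that mouse, at -1.11, against -1.35 and -1.21 in the other sedentary mice. The satellite cell list had 1 of 6 tested genes called lower, Pax7 at -0.60 (SE 0.11, adjusted p = 0.0255 by limma), while Myf5 was too dim to be tested. The smooth muscle and pericyte list had 1 of 8 called lower, Myh11 at -0.95, and the red blood cell list 0 of 3, with 0 at an unadjusted p under 0.05. The part of fibre number, fibre type and denervation in the values of the 10 genes was not tested.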

How the data were processed

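Quadriceps RNA of 3 exercised and 3 sedentary AR97Q mice was labelled with 1 dye and hybridized to Agilent SurePrint G3 mouse arrays. The authors deposited 1 scanner file per array, made with Agilent Feature Extraction 12.1.0.3, in which the processed signal is an intensity after background subtraction and spatial detrending. Control spots (3671 of 62976) and outlier spots were left out, spots of a probe were averaged on the log2 scale, and the 75th percentile of the array was taken off. A probe was kept if 3 or more of the 6 arrays had it well above background (32726 of 56605), and 22 with a missing value were dropped. Between 54.6 and 59.9% of probes were well above background on an array, and no spot was saturated. The number of arrays limits the precision. Probes were named by unversioned accession through a table of the GRCm38.p6 reference, for 34561 probes. A gene was represented by its probe with the highest mean. The groups were compared without covariates by two-sided tests of limma 3.58.1 in R 4.3.3 (functions lmFit, then eBayes), with Benjamini-Hochberg adjustment over 25005 features. The script was tested on simulated data. Other probes were tested among all kept probes. The 10 genes and the lists were chosen with earlier results of these data known. Named are all 10 members, called genes of the list or the largest change of a role with none, extreme markers, and the 3 genes most correlated with Igf1 and with the member of largest change. Some genes this rule gives are not reported here. Akt1, Akt2, Igf2, Igf2r, Pappa, Cish and Jak2 were added after their values were seen.

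Alternatives were quantile, median, spike-in (7 probes) or no scaling, normexp with offset 50, stricter or no filtering of dim probes, averaging probes or taking the most variable one, the deposited values, leaving out each array, blocking on replicate number or on strip, weighting arrays, the trend and robust options, the methods' t-test and other thresholds. The deposited table is the processed intensity of each array times 1 factor (1.33 to 1.88). Start regions came from RefSeq, which had 9 of the 10 members.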

Additional observations from a re-analysis of the deposited data

How the results depend on the processing

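Igf1r stayed negative in all 21 alternatives and passed in 13, from -1.18 to -0.45. Irs1 stayed positive in all 21 (0.28 to 1.10) and passed in 3, Insr stayed negative in all 21 and passed in 2, and Igfbp6 stayed positive in 19 and passed in 8. The values of the other 6 genes changed sign in at least 2 alternatives.

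Of the members, 1 was called higher and 1 lower. Called higher were 0 with quantile, median, no or spike-in scaling, in the deposited table, with the replicate or the strip as a block, with the methods' t-test or with the fold change minimum, and 2 with normexp, array weights or an adjusted p under 0.1. Called lower were 4 without scaling (beside 45.1% of all features), 3 with spike-in scaling (beside 42.3%), and 0 with either block, the t-test or the fold change minimum. With the replicate block 0 and with the strip as a block 3 of all features were called. For the counts of 0 by limma, between 0 and 3 members had an unadjusted p under 0.05 as higher and between 1 and 2 as lower. In these fits 4828 to 14540 of all 25005 features had such a p in either direction. With each array left out in turn, 0 to 2 were called higher and 0 to 1 lower. Leaving out any array but that of sedentary mouse 1 took both counts to 0, and left 0 or 1 of all 25005 features called.

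Of the other pathway genes, 11 were called higher and 2 lower. Of all features, 11.5% were called higher and 6.15% lower, against 7.46% and 5.45% with quantile normalization, 2.47% and 45.1% without scaling, 1.37% and 42.3% with spike-in scaling, 24.5% and 8.08% with normexp, 4.69% and 12.8% in the deposited table and 20.5% and 14.6% with array weights. Called higher were 6 with quantile normalization, 2 without scaling, 0 with spike-in scaling, 21 with normexp, 7 with the probe of largest SD, 3 in the deposited table, 0 with either block, 23 with array weights, 17 with trend and robust, 1 with the t-test, 1 with the fold change minimum and 21 at an adjusted p under 0.1. Called lower were 4 with quantile normalization, 1 with the median, 38 without scaling, 31 with spike-in scaling, 7 with normexp, 4 with the filter on all arrays, 4 with the probe of largest SD, 7 in the deposited table, 0 with either block, 9 with array weights, 5 with trend and robust, 0 with the t-test, 0 with the fold change minimum and 8 at an adjusted p under 0.1. With each array left out, 0 to 16 were called higher and 0 to 5 lower, and again leaving out any array but that of sedentary mouse 1 gave 0. At an unadjusted p under 0.05 limma then counted 15 to 18 higher and 4 to 8 lower, against 17 and 8 with the replicate block, 7 and 7 with the strip as a block and 1 higher with spike-in scaling. In either direction, 6680 to 8146 of all 25005 features had such a p in those leave-out fits. With the replicate block 8582 had it, with the strip as a block 4828 and with spike-in scaling 13936.

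Without scaling, which lowered the median of all features to -0.45, the sign turned to -0.29 for Igf1, -0.30 for Irs2, -0.43 for Igfbp4, -0.15 for Igfbp5, -0.10 for Igfbp6 and -0.44 for Igfbp7. With spike-in scaling, where that median was -0.51, these were -0.36, -0.36, -0.49, -0.21, -0.16 and -0.51. The sign of Igfbp7 also turned to -0.23 with quantile normalization, -0.0716 with normexp, -0.13 in the deposited table and -0.25 with the strip as a block, that of Igf1 to -0.0338 with the strip as a block, that of Igfbp4 to -0.11 in the deposited table and -0.0292 with array weights, and that of Igfbp3 to 0.0205 with median scaling and 0.0294 with array weights. With each array left out, Irs2 ranged from -0.26 to 0.44, Igfbp3 from -0.20 to 0.0113, Igfbp4 from -0.0685 to 0.12 and Igfbp7 from -0.0789 to 0.17. The cause was not tested.

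Same-numbered mice of the groups deviated together with correlations of 0.015, 0.085 and 0.036, beside -0.107 to 0.075 for mice of different numbers. With 3 mice per group these values cannot show whether the numbers pair the mice, and the labels do not say it. The replicate block moved the counts of members called to 0 and 0, at an adjusted p of 0.0606 for Igf1r and 0.0785 for Igfbp6, with the same differences.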
